A study of Mus musculus with 3 samples.

Results

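The E2F and Dp transcription factors were described across 3 sorted populations of mouse bone marrow cells. The family was taken by gene name, as E2f1 to E2f8 with their dimer partners Tfdp1 and Tfdp2, 10 genes of 23393 in the table. All 10 reached a mean of 50 in level, the minimum for a comparison, as did 11951 genes in all. The cells came from C57BL/6 mice and were gated as LSK, the marrow fraction without lineage markers but with Sca-1 and c-Kit, where stem cells and early progenitors lie. Hematopoietic stem cells (HSCs) were CD48- CD150+ and were divided by a Map17-GFP reporter into Map17-GFP- and Map17-GFP+ cells, here GFP- and GFP+ HSCs. Multipotent progenitors (MPPs) were CD48+ CD150- and Map17-GFP-. There was 1 library for each population, so there was no spread between replicates and no test. A level is the authors' normalized count of a gene in a library. How many mice were pooled and how old they were is not given in the sources used here.

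E2F proteins bind the promoters of genes needed to enter and pass through the cell cycle, and all but E2f7 and E2f8 do so as dimers with a Dp protein. E2f1, E2f2 and E2f3 are activators that are held in check by the retinoblastoma protein until cyclin-dependent kinases release them. E2f4 and E2f5 are repressors that work with the pocket proteins Rbl1 and Rbl2 and, in the DREAM complex, with the MuvB proteins. E2f6 represses together with Polycomb proteins, and the atypical members E2f7 and E2f8 bind DNA without a Dp partner and repress the same genes that the activators switch on. Adult HSCs divide rarely, whereas MPPs divide often. Transcript levels do not show how much of an E2F protein is free of its pocket protein.

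Promoters are shown for 5 members because the family itself contains E2F target genes. The sequences are the 250 bases before a RefSeq start site (GRCm38.p6), read along the gene's strand, and the search covered the 50 bases after it too. RefSeq entries matched 8 of the 10 members, all but E2f4 and E2f5. The motifs were the E2F motif (TTTCCCGC, TTTCGCGC, TTTGGCGC or TTTGCCGC) and the CHR motif (TTTGAA), which the MuvB proteins recognise, each on both strands. No E2F motif overlaps the CHR motif in these windows. Capitals mark both motifs, together with the E2F motif shortened to its first 7 bases.
E2f3, chr13:29986064-29986313, minus strand: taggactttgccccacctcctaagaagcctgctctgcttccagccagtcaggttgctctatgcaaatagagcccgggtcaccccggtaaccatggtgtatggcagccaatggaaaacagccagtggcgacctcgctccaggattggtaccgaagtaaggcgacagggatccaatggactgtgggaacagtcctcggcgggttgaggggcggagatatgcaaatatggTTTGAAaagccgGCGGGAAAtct
E2f7, chr10:110745189-110745438, plus strand: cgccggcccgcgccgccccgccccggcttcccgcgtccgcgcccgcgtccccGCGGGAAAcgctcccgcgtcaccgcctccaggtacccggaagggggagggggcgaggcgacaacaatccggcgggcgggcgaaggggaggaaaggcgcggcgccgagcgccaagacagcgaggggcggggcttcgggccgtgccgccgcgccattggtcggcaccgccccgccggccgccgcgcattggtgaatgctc
Tfdp1, chr8:13338501-13338750, plus strand: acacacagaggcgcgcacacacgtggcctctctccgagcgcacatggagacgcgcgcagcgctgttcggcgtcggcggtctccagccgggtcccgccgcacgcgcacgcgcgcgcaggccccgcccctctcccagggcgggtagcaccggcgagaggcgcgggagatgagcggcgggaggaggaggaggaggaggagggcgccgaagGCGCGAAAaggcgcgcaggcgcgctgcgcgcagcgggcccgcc
E2f8, chr7:48881597-48881846, minus strand: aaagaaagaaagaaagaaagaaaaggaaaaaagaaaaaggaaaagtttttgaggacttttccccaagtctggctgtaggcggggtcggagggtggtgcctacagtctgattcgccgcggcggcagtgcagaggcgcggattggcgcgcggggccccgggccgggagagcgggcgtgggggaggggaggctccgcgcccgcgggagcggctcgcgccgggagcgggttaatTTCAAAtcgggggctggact
E2f6, chr12:16810715-16810964, plus strand: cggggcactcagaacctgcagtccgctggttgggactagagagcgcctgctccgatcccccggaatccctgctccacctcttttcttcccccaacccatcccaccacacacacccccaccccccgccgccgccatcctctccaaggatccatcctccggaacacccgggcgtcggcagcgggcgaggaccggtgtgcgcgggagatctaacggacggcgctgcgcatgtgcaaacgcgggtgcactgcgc
The E2F motif stood 11 bases before the start of E2f3, 198 before that of E2f7 and 43 before that of Tfdp1, each time on the opposite strand. It also stood at base 40 after the first start of E2f2. E2f3 held a CHR motif 23 bases before its start as well. E2f8 held a CHR motif 20 bases before the start and no E2F motif in this window, and E2f6 held neither. The windows of 3 members do not show the outermost promoter. That of E2f8 belongs to a start 477 bases inside the gene, that of E2f1 to a start 466 bases inside, past the start codon of the longest GENCODE transcript, and that of Tfdp2 lies 62459 bases inside. Of all 32851 promoters of the same length, 2.27% held the E2F motif and 17.9% the CHR motif. A match describes letters and does not show binding.

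The levels summed to between 25364232 and 26748600 per library after the authors' scaling, and the depth behind them is unknown. The sort genes went with the labels: Slamf1 (CD150) stood at 17 in MPPs, against 2144 in GFP- and 2219 in GFP+ HSCs, and Cd48 at 7744, 168 and 64. Pdzk1ip1, which encodes Map17, stood at 290, 3673 and 5659. Xist, expressed from the inactive X chromosome of female cells, stood at 2262, 6137 and 3087, so the libraries differed in a transcript that depends on sex. Markers of other cells were present in part. Neutrophil markers summed to 25934 in MPPs, followed by 4368 in GFP- and 4788 in GFP+ HSCs over 10 genes, most of it from Elane and Prtn3. Of the 8 neutrophil markers past the minimum, 6 were higher in GFP+ than in GFP- HSCs, beside 51.7% of all genes. The markers had a median log2 ratio of 0.70, with Ngp at 165 and 499. Their part in the results was not tested. Monocyte markers summed to 15478, 6903 and 6953 over 7. T and NK cell markers summed to 8582, 1704 and 1003 over 9 genes, B cell markers to 1489, 781 and 918 over 8, and erythroid markers to 5176, 4984 and 3039 over 9, with Hbb-b1 and Hba-a1 listed at 0.

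Among the activators, E2f1 and E2f2 were highest in MPPs and lowest in GFP+ HSCs. E2f1, the best known activator (chromosome 2, 154559400 to 154569892), stood at 2388 in MPPs, with 1996 in GFP- and 1418 in GFP+ HSCs. Its level in GFP- HSCs was therefore nearer to that in MPPs than to that in GFP+ HSCs. On the scale of log2(level + 5), which is used for every log2 ratio here, E2f1 was at -0.26 in GFP- HSCs against MPPs and at -0.49 in GFP+ against GFP- HSCs. With levels rescaled to housekeeping genes the first of these became 0.05, so the direction of that step was not fixed.

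E2f2 (chromosome 4, 136172274 to 136196057), known for its role in erythroid and lymphoid cells, stood at 929, 528 and 311. From MPPs to GFP- HSCs it was 1.76-fold lower, and 1.70-fold lower again in GFP+ HSCs. The GFP+ library held 2.99-fold less of it than the MPP library. E2f3 (chromosome 13, 29906575 to 29986064) stood at 1129, 823 and 916, which put both HSC fractions below MPPs and GFP+ HSCs above GFP- HSCs. Its log2 ratio was -0.45 in GFP- HSCs against MPPs, then 0.15 in GFP+ against GFP- HSCs, and for GFP+ HSCs against MPPs it was -0.30, or 0.04 after rescaling to housekeeping genes. E2f3 has 2 starts in RefSeq, for the forms E2f3a and E2f3b, and the table sums over them.

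**Figure D1:**
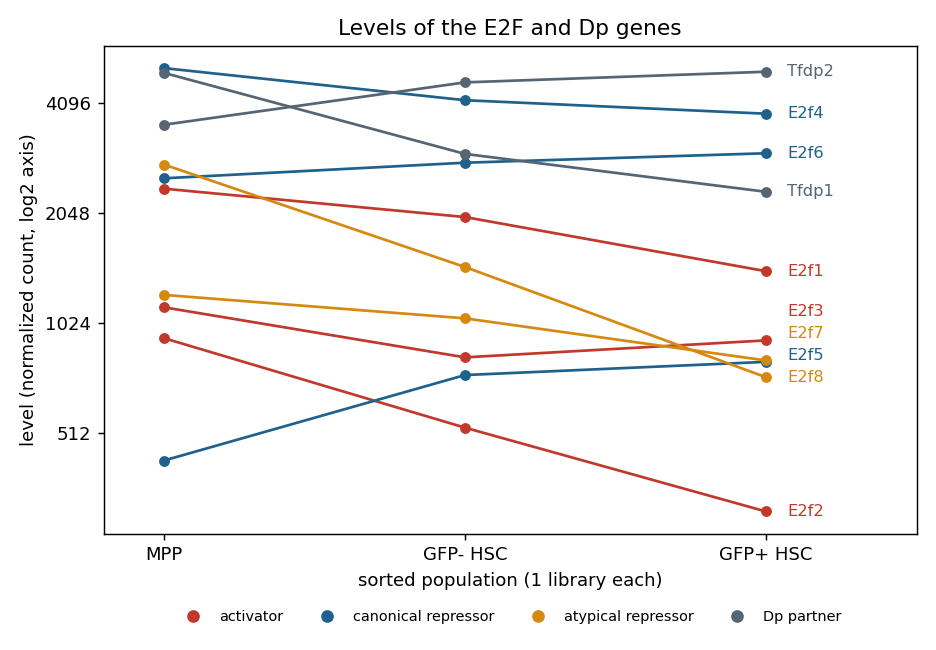
Level of each of the 10 genes (normalized count, log2 axis) in the MPP, GFP- HSC and GFP+ HSC libraries, 1 point per library and colours by class. E2f8 goes from 2781 to 726 and E2f2 from 929 to 311, whereas E2f5 goes from 429 to 800.

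The atypical repressors were both lowest in GFP+ HSCs, E2f8 by far more than E2f7. E2f8 (chromosome 7, 48866429 to 48882073) stood at 2781 in MPPs, against 1456 in GFP- and 726 in GFP+ HSCs. Each population thus held about as much less than the one before it, 1.91-fold at the MPP to HSC step and 2.01-fold between the HSC fractions. Its log2 ratio of -0.999 between the fractions put it in place 105 from the lowest of 11951 genes, directly outside the 104 that were at least 2-fold lower. Against MPPs, GFP+ HSCs held 3.83-fold less, a log2 ratio of -1.93, with 2.75% of genes lower still. On the authors' scaling E2f8 was the member farthest from 0 in all 3 comparisons, whereas after rescaling to housekeeping genes E2f5, at 1.08, lay farther in GFP- HSCs against MPPs than E2f8, at -0.62.

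E2f7 (chromosome 10, 110745439 to 110787384) stood at 1221, 1053 and 807. The GFP- HSC library was close to the MPP library, with a log2 ratio of -0.21 that became 0.10 after rescaling to housekeeping genes, and the GFP+ library was below both, at -0.38 against GFP- HSCs. E2f8 exceeded E2f7 in level per kb of the longest transcript by 3.38-fold in MPPs, but by 2.05-fold in GFP- and 1.33-fold in GFP+ HSCs. The quotient of the levels themselves was 2.28, 1.38 and 0.900. The longest transcript has 5473 bases for E2f7 and 3691 for E2f8, whereas the median lengths are 3216 and 3595. Which of them was more abundant in GFP+ HSCs therefore depended on the transcript length. In RefSeq, the non-coding genes Gm2788 and LOC115486422 overlap E2f8 by 774 and 2584 bases, and Gm51780 overlaps E2f7 by 2630. The library chemistry does not mark the strand, so reads from these overlaps cannot be told apart.

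The canonical repressors differed among themselves on the authors' scaling, with E2f4 lower in HSCs than in MPPs and E2f5 and E2f6 higher. E2f4 (chromosome 8, 105297663 to 105305370), the main E2F of resting cells, stood at 5112 in MPPs, followed by 4174 in GFP- and 3833 in GFP+ HSCs. Its log2 ratios were small, -0.29 for GFP- HSCs against MPPs (0.02 after rescaling to housekeeping genes) and -0.12 between the HSC fractions. E2f5 (chromosome 3, 14578602 to 14606309), its close relative, stood at 429, 736 and 800. Both HSC fractions were above MPPs, by 1.72-fold for GFP- and 1.86-fold for GFP+ HSCs, and lay close to each other. E2f5 shares 21 bases with Rbis, listed as 1810022K09Rik, which ran the other way at 490, 343 and 251. E2f6 (chromosome 12, 16810909 to 16826752) stood at 2549, 2813 and 2986, a log2 ratio of 0.14 and then 0.09. The first of these was 0.45 after rescaling to housekeeping genes.

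The Dp partners ran in opposite directions. Tfdp1, which encodes Dp1 (chromosome 8, 13338725 to 13378448), stood at 4961 in MPPs, with 2974 in GFP- and 2341 in GFP+ HSCs. GFP- HSCs held 1.67-fold less than MPPs, and GFP+ HSCs a further 1.27-fold less. Tfdp2, which encodes the partner called Dp2 or Dp3 (chromosome 9, 96196246 to 96323646), stood at 3575, 4671 and 4996. Tfdp2 was highest where Tfdp1 was lowest, and its log2 ratios were 0.39 and 0.10. The quotient of the Tfdp1 to the Tfdp2 level was 1.39 in MPPs, against 0.637 in GFP- and 0.469 in GFP+ HSCs. Per kb of the longest transcript the same quotient was 4.06, 1.86 and 1.37, and per kb of the median transcript length it was 2.11, 0.969 and 0.713. Which partner was more abundant within the HSC libraries therefore depended on the transcript length. The order of the 3 libraries could not, since the length of a gene is the same in all of them. RefSeq also lists a pseudogene, Tfdp1-ps, and how shared reads were counted is not given in the sources used here.

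**Figure D2:**
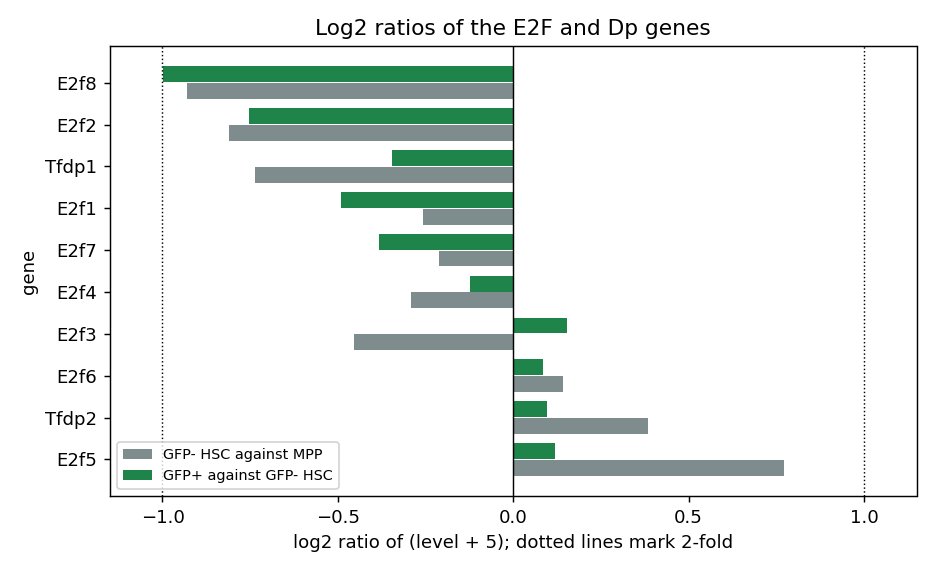
Log2 ratio of (level + 5) of each gene for GFP- HSCs against MPPs (grey bars) and GFP+ against GFP- HSCs (green bars), ordered by the ratio of GFP+ HSCs to MPPs, with dotted lines at 2-fold. E2f8 is lowest in both comparisons, at -0.93 and -0.999, and E2f5, Tfdp2 and E2f6 are above 0 in both.

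In GFP+ against GFP- HSCs, 6 of 10 members were lower and 4 higher by any amount, beside 47.8% and 51.7% of all genes. In GFP- HSCs against MPPs, 7 were lower and 3 higher, beside 50.6% and 49.2%, and in GFP+ HSCs against MPPs 7 and 3 again, beside 49.2% and 50.7%. Counted by size, 0 of 10 members were at least 2-fold higher in GFP+ than in GFP- HSCs, beside 0.410% of all genes, and 0 were at least 2-fold lower, beside 0.870%. At 1.5-fold, E2f2 and E2f8 were lower, 2 of 10 members, beside 3.0% of all genes, and 0 were higher, beside 2.44%. In GFP- HSCs against MPPs, 0 members were 2-fold higher and 0 were 2-fold lower, beside 11.6% and 5.53% of all genes. At 1.5-fold, E2f2, E2f8 and Tfdp1 were lower, beside 13.4% of all genes, and E2f5 was higher, beside 19.3%. In GFP+ HSCs against MPPs, E2f2, E2f8 and Tfdp1 were at least 2-fold lower, 3 of 10 members beside 8.60% of all genes, and 0 were 2-fold higher, beside 13.7%. At 1.5-fold, E2f1 and E2f7 joined the lower members, 5 of 10 beside 17.9% of all genes, and E2f5 was higher, beside 22.3%. The median log2 ratio of the members was -0.23 between the HSC fractions, where all genes had a median of 0.01. Set against MPPs, it was -0.28 in GFP- and -0.50 in GFP+ HSCs, where all genes had medians of -0.01 and 0.01. The comparisons share libraries, so they are not independent of each other.

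Per kb of the longest transcript, E2f4 was the most abundant E2f gene in each library, at 2565 in MPPs, followed by 2094 in GFP- and 1923 in GFP+ HSCs. E2f6 came next at 1054, 1163 and 1235, and E2f1 after it at 867, 725 and 515. E2f8 came after E2f1 in MPPs, at 753 per kb, but E2f5 had that place in GFP- HSCs, at 414 against 394 for E2f8, and in GFP+ HSCs, at 450 against 197. E2f2 was the least abundant, at 196, 111 and 65.6. With 1 library each, no pair of neighbours in this order can be set against a spread.

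Summed by class on the same per kb scale, the activators made up 20.98% of the E2f transcripts in MPPs, against 19.0% in GFP- and 16.1% in GFP+ HSCs. The atypical repressors E2f7 and E2f8 made up 16.0%, 11.2% and 7.30%. The canonical repressors E2f4, E2f5 and E2f6 made up 63.1%, 69.9% and 76.6%. Their summed level per kb was 3860, 3671 and 3608, on the authors' scaling, while the activators went from 1284 through 997 to 760 and the atypical repressors from 977 through 587 to 344. The 3 sums of the canonical repressors thus lay closer together than those of the other classes. Shares within a library do not depend on the scaling between libraries.

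**Figure D3:**
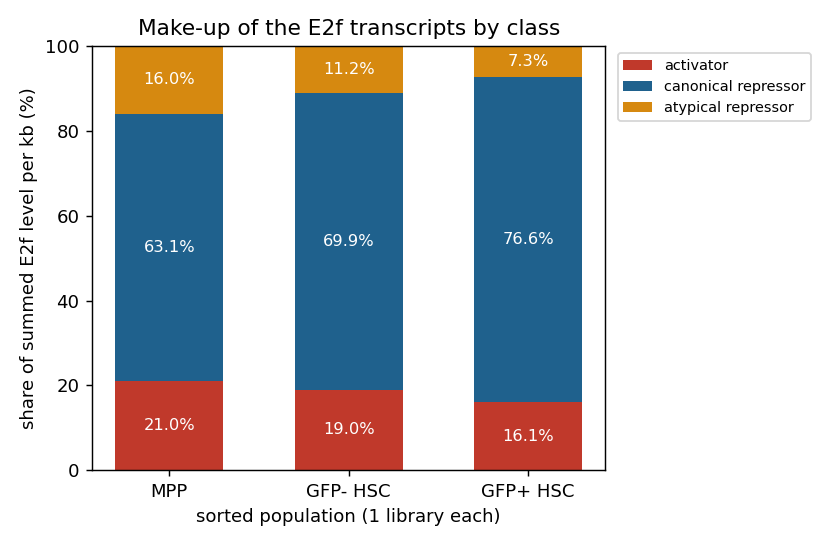
Share of the summed level per kb of the 8 E2f genes (%) held by activators, canonical repressors and atypical repressors in each library. The share of canonical repressors goes from 63.1% in MPPs to 76.6% in GFP+ HSCs and that of atypical repressors from 16.0% to 7.30%.

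The genes nearest to a member were those with the smallest distance between their pair of log2 ratios (GFP- HSCs against MPPs, GFP+ against GFP- HSCs) over the 3 libraries. With so few libraries many genes lie close to any member. The nearest to E2f8 were Map3k6, Dnajc6 and Cdkn2c, at distances of 0.10, 0.11 and 0.11. Cdkn2c, an inhibitor of Cdk4 and Cdk6, stood at 899 in MPPs, with 506 in GFP- and 250 in GFP+ HSCs. Nearest to E2f7 was Cdkn1a, the inhibitor p21, at 1912, 1667 and 1273 and a distance of 0.02. E2f2 had Mns1, Tiam2 and Eme1 nearest, of which Eme1 encodes a subunit of a DNA repair nuclease, and E2f1 had Zfp382, Alg14 and Havcr2. Those nearest to Tfdp1 were Nop10, Lbh and Mrpl21, of which Nop10 serves ribosome production and Mrpl21 the mitochondrial ribosome. For E2f3, E2f4, E2f5, E2f6 and Tfdp2 the closest genes were Fkbp1a, Pes1, Pogk, Lrch1 and Clk4. With a pseudocount of 20, 18 of the 30 nearest genes were the same.

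The pocket proteins and their complex differed among themselves. Rbl2, the pocket protein of resting cells, stood at 3905 in MPPs, against 5877 in GFP- and 6836 in GFP+ HSCs. Rbl1, its relative in dividing cells and itself an E2F target, ran the other way at 4675, 3540 and 2869. Rb1 stood at 1588, 1920 and 1796, so both HSC libraries were above the MPP library. Mybl2, which replaces the pocket proteins on MuvB in dividing cells, stood at 1501, 686 and 350, and Foxm1, which follows it, at 3390, 1521 and 1135. Over the 10 genes of the list, 9 were lower in GFP+ than in GFP- HSCs (median log2 ratio -0.23) and 7 lower in GFP- HSCs than in MPPs (median -0.40), beside 47.8% and 50.6% of all genes. Of the 14 housekeeping genes, 11 were lower in each of these comparisons.

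Upstream of the pocket proteins, the D cyclins and the other G1 genes parted. Ccnd1, Ccnd2 and Ccnd3 were all higher in HSCs, with Ccnd1 at 311 in MPPs, followed by 574 in GFP- and 741 in GFP+ HSCs. The kinase gene Cdk6 stood at 4197, 1993 and 1127 and Cdk4 at 17299, 10027 and 8481. The E cyclins, which are E2F targets, were lower too, with Ccne2 at 1724, 1070 and 613 and Ccne1 at 612, 404 and 276. These 9 genes had a median of -0.24 between the HSC fractions and -0.59 for GFP- HSCs against MPPs. Of 5 CDK inhibitor genes past the minimum, Cdkn1c stood apart at 181, 1951 and 2792, whereas Cdkn1b was at 311, 242 and 173. The medians of these 5 were -0.39 and -0.20, the second of which turned to 0.11 after rescaling to housekeeping genes and to 0.57 as a mean.

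On the authors' scaling, most genes in the lists of E2F targets were lower in HSCs than in MPPs, and lower again in GFP+ HSCs. These lists came from general knowledge, and it was known from earlier results of these data that cell cycle genes were lower in HSCs. In GFP- HSCs against MPPs all 32 genes of DNA replication were lower, beside 50.6% of all genes, with a median of -0.71. Of these 32, 3 were at least 2-fold lower, as were 5.53% of all genes. After rescaling to housekeeping genes 31 of the 32 were lower, all but Rfc3. Mcm10, a replication factor, stood at 2899 in MPPs, with 1338 in GFP- and 747 in GFP+ HSCs, and Gins1 at 1011, 462 and 279. Rfc3 was the least different of them, at 1680, 1455 and 1327. Between the HSC fractions all 32 were again lower in GFP+ HSCs, beside 47.8% of all genes, with a median of -0.40. Of the 32, 0 were 2-fold lower, beside 0.870% of all genes, and the lowest was the licensing gene Cdc6.

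Of the genes of nucleotide supply and DNA repair, 24 of 24 were lower in GFP- HSCs against MPPs (median -0.71), or 22 after rescaling to housekeeping genes. In GFP+ against GFP- HSCs 23 of 24 were lower (median -0.54). Of all genes, 50.6% and 47.8% were lower in these comparisons. Rrm2, a subunit of ribonucleotide reductase, stood at 5653, 2459 and 1699, and Fancd2 at 1991, 794 and 528. The exception between the fractions was Wee1, which holds back entry into mitosis, at 4443 in GFP- and 4574 in GFP+ HSCs. Chromatin genes had medians of -0.66 and -0.39 over 17 members, of which 17 and 16 were lower, beside 50.6% and 47.8% of all genes. Uhrf1, which maintains DNA methylation, stood at 8051, 3863 and 2748, while Chaf1b was nearly level between MPPs and GFP- HSCs, at 3685 and 3675, and at 3120 in GFP+ HSCs; with each of the 3 rescalings it was higher in GFP- HSCs than in MPPs.

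Mitotic genes, which the MuvB complex controls later in the cycle, were farthest apart at the first step. In GFP- HSCs against MPPs all 40 were lower, beside 50.6% of all genes, with a median of -1.29. Of the 40, 36 were at least 2-fold lower, beside 5.53% of all genes, and all 40 stayed lower with each of the 3 rescalings. Ube2c, which helps to destroy mitotic cyclins, stood at 3942, 1044 and 620, and Ect2, needed for cytokinesis, at 5311, 1573 and 1124. Between the HSC fractions all 40 were lower in GFP+ HSCs, beside 47.8% of all genes, with a median of -0.58. At this step 0 of the 40 were at least 2-fold lower, beside 0.870% of all genes. Espl1, which encodes separase, stood at 1892 and 1058. In a bulk library, fewer dividing cells and less RNA of these genes per cell cannot be told apart. The 6 MPP markers were also lower in GFP+ than in GFP- HSCs, at a summed 10800 against 16522 (232378 in MPPs), and the 8 HSC markers were higher, at 50787 against 40217. The part of either in these differences was not tested.

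In the plot of target genes, the members ran from -0.93 to 0.77 in GFP- HSCs against MPPs. Between the HSC fractions the members ran from -0.999 to 0.15. The 4 target lists were chosen with lower cell cycle genes known, so their spread was not set against that of the members. E2f1, at -0.26, and E2f7, at -0.21, lay above the replication median of -0.71 in GFP- HSCs against MPPs. In GFP+ against GFP- HSCs their values of -0.49 and -0.38 lay near the replication median of -0.40. E2f8, at -0.93 and -0.999, lay between the replication and mitotic medians at the first step and below every gene of these 4 lists at the second. E2f1, E2f7 and E2f8 lay farther below GFP- HSCs in the GFP+ library than they lay below MPPs in the GFP- library. That was so for 2 of 32 replication genes, 6 of 24 nucleotide and repair genes, 2 of 17 chromatin genes and 0 of 40 mitotic genes. The share over all genes was not counted, so how common this is outside these lists is not known. These counts depended on the scaling between libraries. After rescaling to housekeeping genes they were 15, 16, 6 and 1, and E2f2 and E2f4 joined the 3 members. With the abundance trend removed they were 5, 8, 3 and 1, and with the same total or upper quartile, where E2f2 joined as well, 2, 9, 2 and 1. The GFP- library enters both differences with opposite sign, so 1 library can move both.

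**Figure D4:**
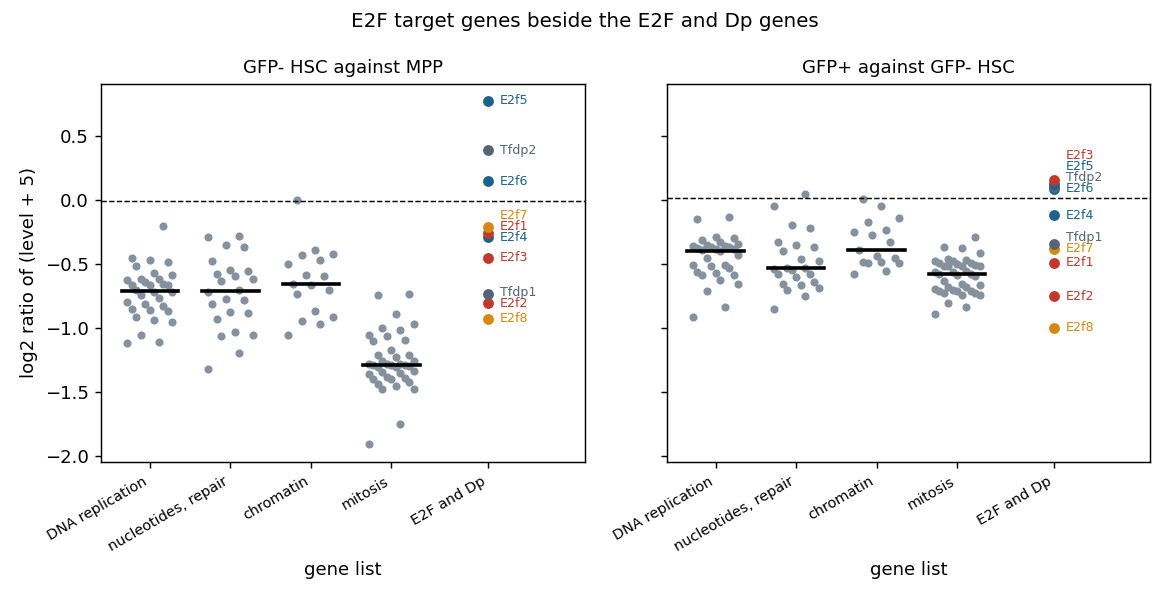
Log2 ratio of (level + 5) of single genes (grey points) in 4 lists of E2F target genes, with the list median as a black bar, beside the 10 E2F and Dp genes coloured by class (red activators, blue canonical repressors, orange atypical repressors, grey Dp partners). The dashed line is the median of all genes, and E2f8, at -0.999 in the right panel, lies below all target genes there.

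The CHR motif stood in 24 of 34 promoters of mitotic genes (70.6%), and the E2F motif in 1 of them (2.94%). Of 26 promoters of replication genes, 12 held the E2F motif (46.2%) and 6 the CHR motif (23.1%). The chromatin genes held both, the CHR motif in 6 and the E2F motif in 4 of 14 promoters (42.9% and 28.6%). Of 18 promoters of nucleotide and repair genes, 3 held the E2F motif (16.7%) and 2 the CHR motif (11.1%). Among the 8994 genes past the minimum with a promoter among those searched the shares were 4.25% for E2F and 11.7% for CHR. The lists were chosen as known targets of E2F or MuvB, so their motif shares are not independent of that choice. Of the members, E2f2, E2f3, E2f7 and Tfdp1 held the E2F motif at their first start, 4 of 8. At the first start, the CHR motif stood in the windows of E2f3 and E2f8, the latter 477 bases inside its gene. E2f2 held a CHR motif 31 bases before another start, 8508 bases inside its gene.

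**Figure D5:**
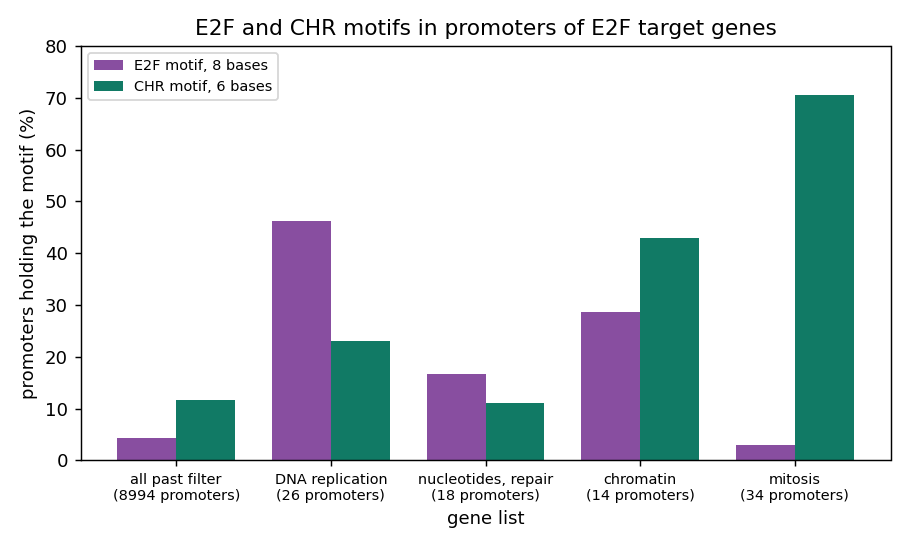
Percent of RefSeq promoters (250 bases before to 50 after the first start) that hold the E2F motif (purple) or the CHR motif (green). Shown are the genes past the minimum with a promoter among those searched, and 4 lists of E2F target genes. The CHR motif stands in 70.6% of promoters of mitotic genes and the E2F motif in 46.2% of those of replication genes. The lists were chosen as known targets of E2F or MuvB.

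Other lists were tied to single members. The 14 partners of E2f6 in its Polycomb complex had medians of -0.04 between the HSC fractions and -0.23 for GFP- HSCs against MPPs, the latter 0.08 after rescaling to housekeeping genes. Mga, the scaffold of that complex, stood at 4134 in MPPs, against 5334 in GFP- and 5954 in GFP+ HSCs, and L3mbtl2 at 2262, 1639 and 1475. Among 3 genes that mark E2F proteins for destruction, Ccnf had the lowest log2 ratios, with levels of 3133, 1232 and 809, while Skp2 stood at 1085, 900 and 701 and Fzr1 at 4259, 3028 and 2760. The median of these 3 was -0.36 between the HSC fractions and -0.49 for GFP- HSCs against MPPs. Of 7 apoptosis genes known to answer to E2f1, 6 passed the minimum. All 6 were lower in GFP+ than in GFP- HSCs, beside 47.8% of all genes, with a median of -0.29. Against MPPs their median in GFP- HSCs was -0.23, or 0.08 after rescaling to housekeeping genes, with Pmaip1, which encodes Noxa, at 1129 in MPPs, followed by 181 in GFP- and 137 in GFP+ HSCs. Trp73 had a level of 4 in MPPs and of 0, as listed, in both HSC libraries. The 14 housekeeping genes had medians of -0.10 and -0.31.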

How the data were processed

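Per the labels' protocols, TRIzol and PicoPure reagents gave the RNA and a SMART-seq v4 low input kit the cDNA. This chemistry amplifies whole transcripts, with no molecular identifiers and no record of strand. The submitters' processing notes name STAR, DESeq2 and mm10, with versions, annotation and counting tool not given in the sources used here. As deposited, each value is a normalized count that the authors held as a whole number, treated as a score because the reads and scaling factors are unknown. Of 23420 rows, 27 with a date in place of a name (0.212% of summed levels) were left out.

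Log2 ratios used a pseudocount of 5, which understates differences of low genes. Folds of single genes are ratios of levels. Comparisons took genes whose mean level reached 50, and likeness used genes with a mean of at least 100. A fixed 2-fold rule stood in for a test. It was tried on simulated counts that varied by counting error alone. Variation between mice, sorts or amplifications was not simulated, so false calls from it were not checked. The members, the 11 pathway lists and the 7 marker lists were chosen with earlier results of these data known. All members are named, with up to 4 genes from each end of a list in each comparison and the 3 genes nearest to a member; other names were chosen after their values were seen. Transcript lengths came from GENCODE M21 coding transcripts and coordinates from RefSeq (GRCm38.p6), matched by symbol. A planned description of protein sequences was not made. Among the alternatives tried, the pseudocount was 1 or 20 and the minimum mean 10, 200 or none. They also covered 3 rescalings, removal of the abundance trend, thresholds of 1.5-fold and 4-fold, list means, median transcript length and other motif lengths. Lists without shared members had been planned, but 0 genes were in more than 1 pathway list. The motif of 7 bases and the step counts under each scaling were added after the data were seen. The calculations ran in Python 3.11.15, using pandas 2.3.3, numpy 2.4.6, statsmodels 0.14.6 and matplotlib 3.10.9.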

Additional observations from a re-analysis of the deposited data

How the results depend on the processing

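With 1 library per population, no replicate could be left out. No paired analysis was possible because each population had a single library and no test was made. Depth is unknown, so it sets no limit that could be computed, and low genes such as Trp73 are the least certain. The pseudocounts, minimum means, total and upper quartile scalings, and the removal of the abundance trend left every member's direction as reported in all 3 comparisons. E2f8 lay on the 2-fold line: between the HSC fractions 1 member was 2-fold lower with a pseudocount of 1 (E2f8 at -1.003), with the upper quartile (-1.002) and with the abundance trend removed (-1.008). Tfdp1 in GFP+ HSCs against MPPs dropped below 2-fold at -0.998 with the trend removed and -0.74 after rescaling to housekeeping genes. At 1.5-fold, 2 members were lower between the HSC fractions, 3 lower and 1 higher in GFP- HSCs against MPPs, and 5 lower and 1 higher in GFP+ HSCs against MPPs, where at 4-fold 0 were lower.

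Rescaling to housekeeping genes moved the median of all genes by 0.31 in GFP- HSCs and 0.34 in GFP+ HSCs against MPPs. On the authors' scaling the housekeeping genes had medians of -0.31 and -0.35 in these comparisons. Whether that lies in their expression or in the scaling was not tested. The rescaling gave 1 member (E2f5, 1.08 and 1.24) 2-fold higher in each comparison. Genes 2-fold higher and lower then numbered 2011 and 439 (1384 and 661 as reported) and 2426 and 633 (1636 and 1028). For GFP- HSCs against MPPs it reversed E2f1 (0.051), E2f4 (0.017) and E2f7 (0.096) and the medians of CDK inhibitors (0.11), E2f6 partners (0.083) and apoptosis genes (0.079). Other medians were -0.090 for pocket proteins and MuvB, -0.29 for G1 genes, -0.40 for replication, -0.40 for nucleotides and repair, -0.35 for chromatin, -0.98 for mitosis and -0.18 for E2F turnover. For GFP+ HSCs against MPPs it reversed E2f3 (0.044) and the E2f6 partners (0.086). The other medians, in the same order with CDK inhibitors after G1 genes, were -0.31, -0.51, -0.24, -0.81, -0.96, -0.69, -1.54 and -0.28, with -0.15 for apoptosis genes.

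Means in place of medians gave, for GFP- HSCs against MPPs, -0.29 for G1 genes, 0.57 for CDK inhibitors, -0.70 for turnover and -0.65 for apoptosis genes, and for GFP+ HSCs against MPPs -0.53, 0.29, -1.07 and -0.94. With no minimum level the CDK inhibitors stood at 0.26 and 0.00 in these comparisons. Between the HSC fractions, the numbers of genes 2-fold higher and lower were 23 and 62 with a pseudocount of 20, 164 and 194 with a minimum of 10, 9 and 57 with a minimum of 200, and 356 and 359 with none. For GFP- HSCs against MPPs a minimum of 200 gave 854 and 449, and none gave 2320 and 1172. For GFP+ HSCs against MPPs these were 1049 and 787, and 2647 and 1576. With a pseudocount of 20, 18 of 30 nearest genes were shared. The core GGCGGG stood in promoters of 7 of 8 members at any start and 6 of 8 (75.0%) at the first, beside 63.8% of genes past the minimum. The cause of these differences was not tested.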

Other observations

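Max, the partner of Mga in the E2f6 complex and of Myc elsewhere, stood at 1742 in MPPs, against 985 in GFP- and 396 in GFP+ HSCs. Its log2 ratio of -1.30 between the HSC fractions made it the only one of the 14 E2f6 partners to pass the 2-fold rule there, and the next lowest, Cbx3, was at -0.21. Mga itself stood at 4134, 5334 and 5954. Max was singled out after its values were seen.

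Among the CDK inhibitors, Cdkn2d ran against Cdkn2c, a member of the same INK4 family. Cdkn2d stood at 1283 in MPPs, followed by 2289 in GFP- and 2185 in GFP+ HSCs, where Cdkn2c stood at 899, 506 and 250. The other INK4 genes, Cdkn2a and Cdkn2b, stood at no more than 3 in any library.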
